A study of Mus musculus with 2 samples.

Results

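The visual cycle and the transport of vitamin A were followed through 9 genes in single cells of the fetal mouse eye. The genes were Rpe65, Rlbp1, Rgr, Rdh5, Rdh10, Lrat, Stra6, Rbp4 and Ttr, chosen by name and found by symbol among the 32285 genes of the count matrices. The cells came from E17.5 eye cups of homozygous humanized mice, and there were 2 libraries, 1 for each genotype. The control was Myrf humWT/humWT (here humWT), in which the last exon of Myrf was replaced by its normal human counterpart. The other genotype, Myrf humdG/humdG (here humdG), had the human exon with a frameshift that alters the end of the MYRF protein, so both groups carried human sequence in place of the mouse exon. Each library was a pool of 3 eye cups per its title, while the methods of the study give a larger number of eyes, and was dissociated with papain. The text of the sample labels on tissue collection speaks of conditional Myrf knockout mice instead of these strains. Cells with more than 500 genes and under 15% mitochondrial counts were kept, 16166 in humWT and 18172 in humdG, with medians of 3785 and 2625 unique molecular identifiers (UMIs, each 1 captured mRNA molecule). The medians of genes per cell were 1434 and 1197. The study reported fewer cells for each genotype, with higher medians of genes per cell that were close to each other. Since each genotype was 1 library, no difference between genotypes could be tested, and every interval given is a 95% interval for counting error only.

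In the visual cycle, light converts 11-cis-retinal to all-trans-retinal in photoreceptors, and the retinal pigment epithelium (RPE) behind them returns it to the 11-cis form. Vitamin A circulates as retinol bound to RBP4, which travels with transthyretin (TTR), and STRA6 takes it into the RPE. LRAT esterifies retinol, RPE65 isomerizes the ester, RDH5 oxidizes 11-cis-retinol, RLBP1 (CRALBP) carries the 11-cis retinoids, and RGR is an opsin of the RPE that takes part in light-dependent regeneration. RDH10 is a retinol dehydrogenase that is also known for making retinaldehyde, the precursor of retinoic acid, in the embryo. MYRF is a transcription factor present in the RPE.

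The genes are protein coding and lie apart from one another in the mouse genome (GRCm38, GENCODE M21). Rpe65 is at chr3:159599175-159625321 on the plus strand and Lrat at chr3:82892579-82903973 on the minus strand. Rlbp1 is at chr7:79374870-79387048 (minus), Rgr at chr14:37034909-37048964 (minus), Rdh5 at chr10:128913593-128922888 (minus) and Rdh10 at chr1:16105774-16133734 (plus). Stra6 is at chr9:58063788-58153996 (plus) and Rbp4 at chr19:38116629-38125281 (minus).

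The 250 bases before the annotated start are shown for 3 genes of the RPE, of which Rpe65 was near 0 UMIs and Rlbp1 and Rgr were above background in RPE-like cells. They are from RefSeq (GRCm38.p6) and run 5′ to 3′ on the strand of the gene. Capitals mark matches, on either strand, to the core TAATCC bound by OTX factors and to the E-box CATGTG, a form that MITF can bind. OTX2 and MITF are transcription factors of the RPE. Of the 9 genes, 7 had entries in the table, with 11 windows in all.
Rpe65, chr3:159598931-159599180, plus strand: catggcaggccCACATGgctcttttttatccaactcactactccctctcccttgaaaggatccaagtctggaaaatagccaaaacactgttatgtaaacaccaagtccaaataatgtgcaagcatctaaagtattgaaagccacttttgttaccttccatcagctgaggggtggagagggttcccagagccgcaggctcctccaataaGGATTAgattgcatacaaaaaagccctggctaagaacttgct
Rlbp1, chr7:79387028-79387277, minus strand: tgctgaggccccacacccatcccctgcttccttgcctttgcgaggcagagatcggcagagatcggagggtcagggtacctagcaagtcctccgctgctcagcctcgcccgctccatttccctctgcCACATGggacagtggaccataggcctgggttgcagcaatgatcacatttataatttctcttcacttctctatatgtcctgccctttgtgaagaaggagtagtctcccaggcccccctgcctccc
Rgr, chr14:37049015-37049264, minus strand: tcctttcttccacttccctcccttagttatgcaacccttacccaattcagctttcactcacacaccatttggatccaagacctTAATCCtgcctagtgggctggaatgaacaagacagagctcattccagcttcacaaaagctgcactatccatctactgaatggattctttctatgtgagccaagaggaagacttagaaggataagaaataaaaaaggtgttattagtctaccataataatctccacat

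The Rpe65 window held GGATTA, the reverse complement of TAATCC, beginning 42 bases before the start, and CACATG, that of CATGTG, beginning 239 bases before it. Rlbp1 held CACATG at 124 bases and Rgr held TAATCC at 167 bases, and the windows of Lrat, Rdh5, Stra6 and Rbp4 held neither. The E-box CACGTG and the sequences CTGGCAC and CTGGTAC, a core described for MYRF, were in none of the 11 windows. Among all 32851 windows of this length, 6.25% held TAATCC on either strand, 12.3% CATGTG, 6.02% CACGTG, 4.19% CTGGCAC and 1.83% CTGGTAC.

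To see where the genes were expressed, the cells were clustered on variable genes from which the 9 genes and 24 other genes of vitamin A metabolism had been removed. The 24 clusters were named from marker genes that did not include any of them, which gave 15 classes, each called like its cell type, and 4 clusters without a name. Values are counts per 1000000 UMIs of the class (CPM). They are set beside red blood cell-like cells (501 cells in humWT and 253 in humdG), in which these genes should be silent and which show the free RNA of the droplets. Hemoglobin took 47.1% and 56.2% of the UMIs of those cells. A gene was counted as above background in a class with at least 20 UMIs and an interval wholly above that of the red blood cell-like cells.

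The RPE-like class joined 2 clusters and held 583 cells in humWT and 473 in humdG, with medians of 3775 and 2315 UMIs. The RPE markers bore out the name, with pigment gene Pmel at 6209 and 7321 CPM, Dct at 4995 and 4211 CPM, the lactate transporter gene Slc16a8 at 762 and 674 CPM and Otx2 at 422 and 409 CPM. Best1, an RPE channel gene, was near 0 at 0.679 and 1.15 CPM. Of the 7 melanocyte markers, Pax3 was at 4.52 CPM in humWT and had no UMI in humdG, and Foxd3 was at 0.452 and 0.769 CPM. The others were higher, with Ptgds at 6330 and 6882, Mlana at 546 and 580, Ednrb at 92.3 and 98.0, Sox10 at 78.5 and 56.5 and Kit at 59.3 and 76.5 CPM. Melanocyte-like cells had more Dct, at 15678 and 16179 CPM, but little Slc16a8 (3.39 and 1.08 CPM) and Otx2 (12.4 and 22.7 CPM). Markers of other classes were also counted in the RPE-like cells, and whether their RNA came from other cells was not tested. The study describes Col1a1, Col1a2 and Col3a1, which are among the mesenchyme markers, as products of the RPE. In the larger of the 2 clusters 1 retinal progenitor marker was raised at least 2-fold over all other cells. The 10 mesenchyme markers summed to 3052 CPM in humWT and 1314 CPM in humdG, the red blood cell markers to 5737 and 7600 CPM, and the retinal progenitor markers to 716 and 1151 CPM. Myrf itself was at 279 CPM in humWT and 190 CPM in humdG, a ratio of 0.683 (0.614 to 0.759). Its last exon was human in both genotypes, and how reads from that exon were counted against the mouse genome is not given in the sources used here.

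In the RPE-like cells 7 of the 9 genes had at least 20 UMIs, and these 7 were above background in both libraries. Of all genes with as many UMIs 77.0% were above it in humWT and 70.9% in humdG. With hemoglobin left out of the totals, a choice made after seeing the data, the 7 genes were still above it, with 39.2% and 22.6% of all genes. The RPE-like cells held most of the transcripts of several of them although they were only 3.61% of the cells of humWT and 2.60% of those of humdG. They contained 81.9% of all Ttr UMIs in humWT and 85.7% in humdG, 75.9% and 82.2% of those of Rgr, and 63.7% and 63.6% of those of Rdh5. For Rlbp1 the shares were 53.9% and 51.8%, for Rdh10 51.8% and 44.5%, and for Stra6 44.5% and 47.1%. Rbp4 was spread differently, with 11.1% and 5.58% of its UMIs in the RPE-like cells. Besides Rbp4, the level in RPE-like cells was from 12.1 times (Stra6 in humWT, over cartilage-like cells) to 82.3 times (Rgr in humdG, over muscle-like cells) that of the highest of the 13 other classes. The 4 clusters without a name are not among these classes. The largest of them, led by Sncg and Cdk8, held 20.4% of the cells of humWT and 41.0% of those of humdG. In humdG its Rgr level was above that of muscle-like cells. In humWT the unnamed cluster led by Tnmd and C1qtnf3 had more Ttr, Rgr (138 UMIs) and Rdh5 (202 UMIs) per UMI than any of the 13 classes. The unnamed clusters led by Sncg and Cdk8 and by Rasgef1b and Anks1b had more Rdh10 in humWT. The multiples of these genes over those clusters would thus be lower.

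**Figure D1:**
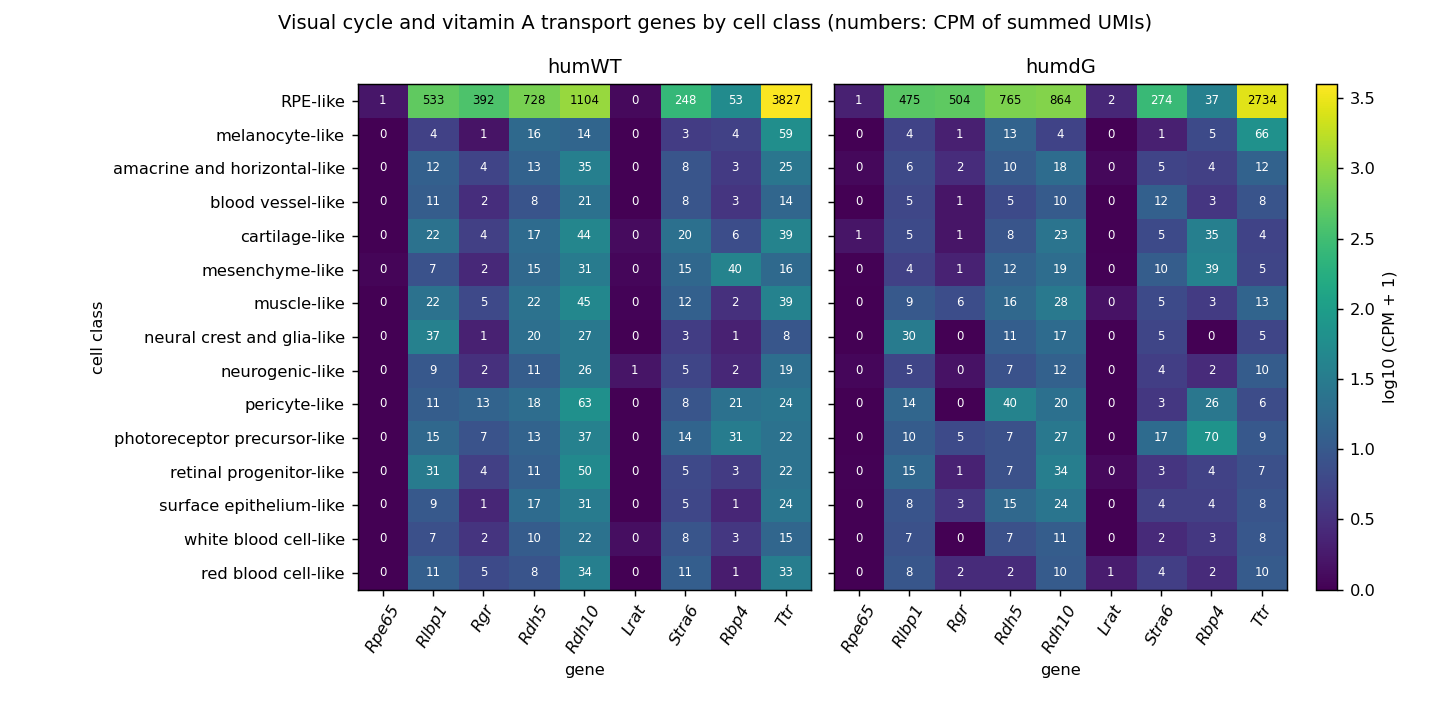
Level of the 9 genes in each cell class of the humWT and humdG libraries, with classes in rows, genes in columns, color for log10 of CPM + 1 and the CPM printed in each cell. In the RPE-like row Ttr reaches 3827 and 2734 CPM, and Rpe65 and Lrat stay dark in every row.

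The enzymes at the head of the cycle were the exception. Rpe65, the isomerase, had 3 UMIs in the RPE-like cells of humWT and 3 in those of humdG, which is 0.679 CPM (0.140 to 1.98) and 1.15 CPM (0.238 to 3.37). It had 12 and 10 UMIs over all cells kept. Lrat, whose product makes the retinyl ester that RPE65 acts on, had 1 UMI in the RPE-like cells of humWT and 4 in those of humdG, and 17 and 21 in all. In red blood cell-like cells Rpe65 had 0 UMIs in both libraries, and Lrat had 0 in humWT and 1 in humdG. In RPE-like cells with at least 10000 UMIs they were as scarce, with 2 and 3 UMIs of Rpe65 and 1 and 4 of Lrat. Neither entered a comparison between genotypes.

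Rlbp1, the carrier of 11-cis retinoids, was at 533 CPM (511 to 555) in RPE-like cells of humWT and 475 CPM (449 to 502) in those of humdG, from 2355 and 1236 UMIs. Its level in red blood cell-like cells was 11.3 and 8.11 CPM. A UMI of Rlbp1 was found in 58.1% of the RPE-like cells of humWT and 41.6% of those of humdG, while red blood cell-like cells, with median depths of 3984 and 4129 UMIs, had one in 4.39% and 3.56%. After each cell was thinned to 1000 UMIs, which left 583 and 469 RPE-like cells, the shares were 27.1% and 20.7%.

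Rgr was at 392 CPM (374 to 411) in humWT and 504 CPM (477 to 532) in humdG. Its UMIs were gathered in few cells. A UMI was found in 26.1% and 21.6% of the RPE-like cells, and in 10.6% and 11.3% after thinning. In the deep RPE-like cells, those of 10000 UMIs or more (110 in humWT and 68 in humdG), the median cell had 80.6 and 104 CPM of Rgr, whereas the highest cell had 3907 and 4636 CPM. The 10 cells with the most Rgr held 67.7% and 70.3% of the Rgr UMIs of these deep cells.

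The dehydrogenases were both high in the RPE-like cells. Rdh5 was at 728 CPM (703 to 753) in humWT and 765 CPM (732 to 799.7) in humdG, and at 7.68 and 1.80 CPM in red blood cell-like cells. It was found in 53.9% and 46.5% of the RPE-like cells, and in 24.4% and 27.5% after thinning, so the order of the genotypes turned with depth. Rdh10 was at 1104 CPM (1074 to 1136) in humWT and 864 CPM (829 to 901) in humdG, and was found in 69.5% and 49.3% of the RPE-like cells. Thinned to the same depth, the Rdh10 shares were 36.5% and 27.9%. Its level in red blood cell-like cells was 34.4 and 9.91 CPM.

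Stra6, the receptor for retinol-bound RBP4, was at 248 CPM (233 to 263) in humWT and 274 CPM (255 to 295) in humdG, with a UMI in 37.9% and 35.1% of the RPE-like cells. Of the blood carriers, Ttr (chr18:20665280-20674321, plus strand) was at 3827 CPM (3769 to 3885) in humWT and 2734 CPM (2671 to 2798) in humdG, from 16914 and 7113 UMIs. A Ttr UMI was found in 64.7% and 52.9% of the RPE-like cells, and in 43.4% and 35.4% after thinning. In red blood cell-like cells Ttr was at 33.0 and 9.91 CPM, with a UMI in 13.2% and 3.95% of them. Rbp4 was at 52.9 CPM (46.4 to 60.2) and 36.5 CPM (29.5 to 44.6), in 13.9% and 10.6% of the RPE-like cells, and at 0.904 and 1.80 CPM in red blood cell-like cells.

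**Figure D2:**
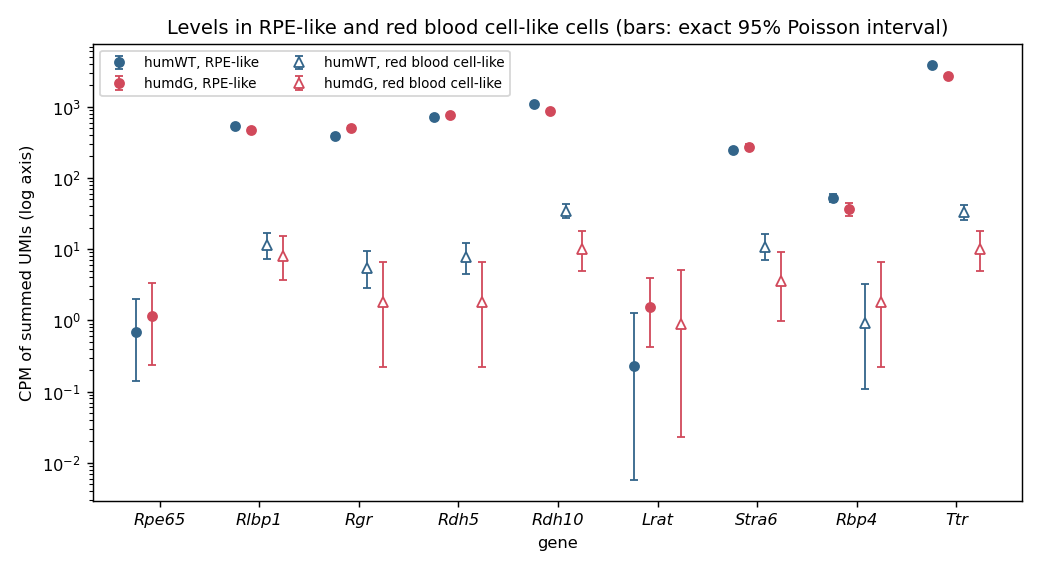
CPM of the 9 genes in RPE-like cells (filled circles) and red blood cell-like cells (open triangles) of both libraries on a log axis, with bars for the exact 95% counting interval and no symbol where a gene had 0 UMIs. For 7 genes the RPE-like values lie above the red blood cell-like ones with no overlap of the bars, as for Ttr at 3827 and 33.0 CPM in humWT.

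The 2 RPE-like clusters differed in these genes, which had no part in forming them. The larger, led by Ttr and Ptgds, held 509 cells in humWT and 457 in humdG. The smaller, led by Ankfn1 and Otx2os1, held 74 and 16. In humWT, Ttr was at 185 CPM in the smaller and 4294 CPM in the larger cluster, a ratio of 0.0431 (0.0348 to 0.0528). Rgr had a ratio of 0.161, Rdh5 of 0.222, Rlbp1 of 0.296, Rdh10 of 0.400 and Stra6 of 0.420, and Rbp4 had 1 UMI in the smaller cluster. Among the genes of retinoid handling outside the list, Lrp2 and Abca4 went the other way. Lrp2, which encodes the endocytic receptor megalin, was at 219 CPM in the smaller and 82.4 CPM in the larger cluster, and Abca4, a retinoid flippase gene, at 301 and 155 CPM.

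Cells of the smaller cluster were deeper, with a median of 6499.5 against 3410 UMIs in humWT, had fewer mitochondrial UMIs (1.58% against 3.74%) and more of the nuclear RNA Malat1 (2.08% against 1.40%). The part of these differences in the levels was not tested. In humdG the 16 cells of the smaller cluster had Ttr at 254 CPM and Lrp2 at 208 CPM, against 2819 and 57.7 CPM in the larger one. Abca4 there was at 139 against 124 CPM, with a ratio of 1.12 (0.573 to 1.99) whose interval included 1.

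Within the RPE-like class each of the 7 genes had its highest level in the deepest cells, in both libraries. Across 4 bins, parted at 2000, 4000 and 10000 UMIs per cell, Ttr went from 329.8 through 877 and 1695 to 5676 CPM in humWT. In humdG it went from 316 through 847 and 2079.6 to 3901 CPM. Rdh5 went from 66.0 to 1058 CPM in humWT and from 141 to 1067 CPM in humdG, and Rgr, from the second bin to the last, from 87.2 to 577 and from 126 to 766 CPM. These bins held 27, 285, 161 and 110 cells in humWT and 159, 182, 64 and 68 in humdG. The RPE marker Pmel followed the same order, from 1209 to 9129 and from 2899.7 to 9688 CPM, while Col1a1 of mesenchyme went from 2595 to 689 and from 903 to 288 CPM. Other genes did not keep to this order. Mitf in humWT was at 544 CPM in the third bin and 448 CPM in the deepest, and the hemoglobin genes in humdG were at 14624, 10812, 23842 and 1563 CPM from the shallowest bin to the deepest.

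**Figure D3:**
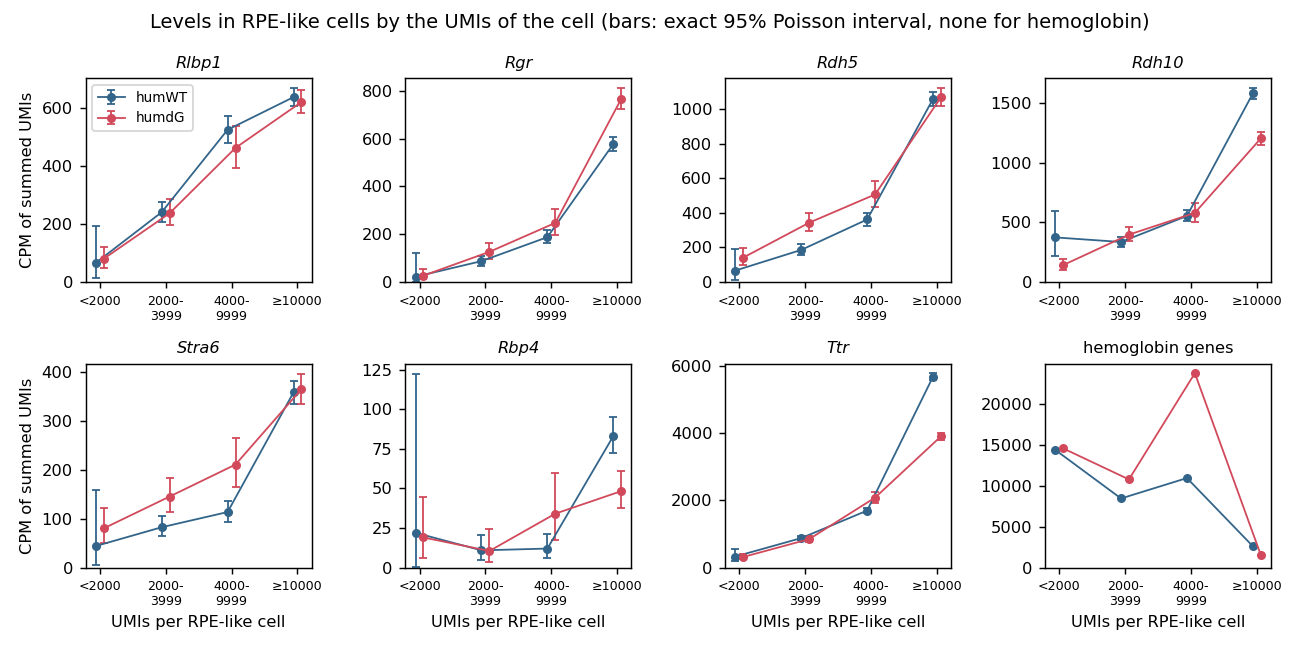
CPM (linear axes) of the 7 genes above background, and of the hemoglobin genes, in RPE-like cells of both libraries by the UMIs of the cell, in 4 bins, with exact 95% counting intervals for the 7 genes. The deepest bin, of 110 and 68 cells, is the highest for each of the 7 genes in humWT and in humdG, as with Ttr at 5676 and 3901 CPM, and the lowest for hemoglobin.

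Most deep cells held several of the genes at once. At least 10000 UMIs gave a median of 6 of the 9 genes per cell in both libraries, and no RPE-like cell of either library held more than 8. Over all RPE-like cells the median was 3 genes in humWT and 2 in humdG, and 43 cells (7.38%) and 94 cells (19.9%) held none. In the deep cells Ttr was found in 96.4% and 91.2%, Rdh10 in 98.2% and 100%, Rlbp1 in 96.4% and 100%, Rdh5 in 96.4% and 98.5%, Stra6 in 88.2% and 89.7%, Rgr in 59.1% and 61.8% and Rbp4 in 56.4% and 45.6%. As a description over these 110 and 68 cells, which share library, depth range and free RNA, Spearman's correlation between the CPM of Rdh10 and Stra6 was 0.71 and 0.63, between Rdh5 and Rdh10 0.62 and 0.58, and between Rgr and Ttr 0.49 and 0.52. Rlbp1 and Stra6 went in opposite directions, at -0.30 and -0.36.

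For the question of what the humdG allele does in the RPE, the 7 genes were set side by side in the RPE-like cells of both libraries. None of them differed by 1.5-fold or more, while 22.9% of the 12729 genes with at least 20 UMIs did, 7.63% being higher and 15.3% lower in humdG. That share takes in genes with as few as 20 UMIs, where counting error is larger. Rbp4, the scarcest of the 7, had 234 and 95 UMIs, and the share among genes of like counts was not taken. Rbp4 had the lowest humdG to humWT ratio, 0.690 (0.538 to 0.879), followed by Ttr at 0.715 (0.695 to 0.735), Rdh10 at 0.783 (0.744 to 0.823) and Rlbp1 at 0.892 (0.832 to 0.956). Rdh5 was at 1.05 (0.994 to 1.11), Stra6 at 1.11 (1.01 to 1.22) and Rgr at 1.29 (1.20 to 1.38). The intervals of Ttr, Rdh10, Rlbp1 and Rbp4 were below 1, those of Rgr and Stra6 above it, and that of Rdh5 included it. The median log2 ratio of the 7 genes was -0.17, with -0.06 for all genes tested.

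**Figure D4:**
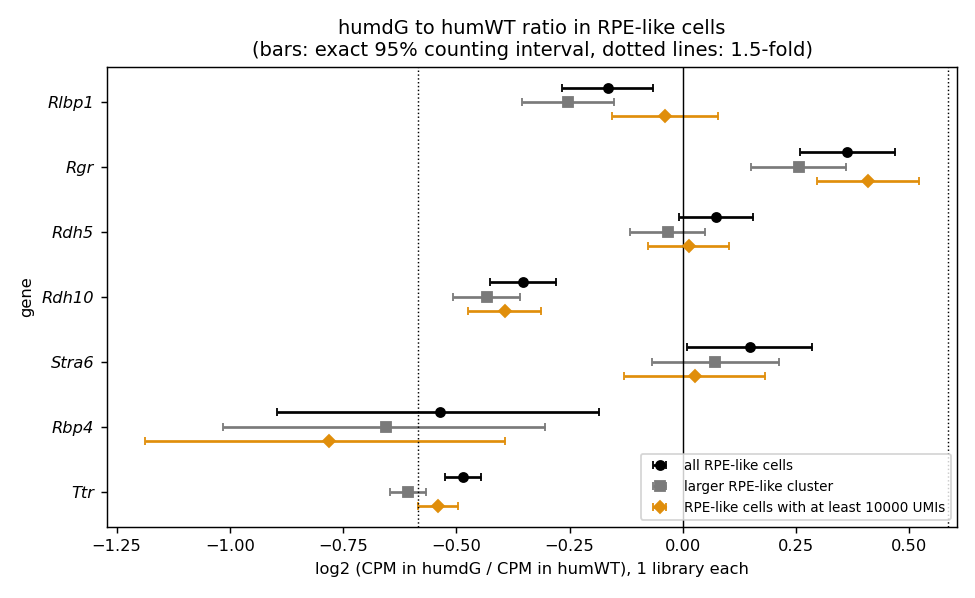
Log2 ratio of humdG to humWT CPM for each of the 7 genes, with exact 95% counting intervals, for all RPE-like cells (circles), the larger RPE-like cluster (squares) and RPE-like cells with at least 10000 UMIs (diamonds). Dotted lines mark 1.5-fold, and in all RPE-like cells Rgr lies farthest to the right (ratio 1.29) and Rbp4 farthest to the left (0.690).

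With deep cells alone, which had medians of 19209 and 18601 UMIs, Ttr was at 5676 and 3901 CPM, a ratio of 0.687 (0.667 to 0.708), and Rdh10 at 1581 and 1204 CPM, a ratio of 0.761 (0.720 to 0.805). Rgr was at 577 and 766 CPM, with a ratio of 1.33 (1.23 to 1.44). The Rlbp1 ratio there was 0.973 (0.897 to 1.06) and that of Stra6 1.02 (0.915 to 1.13), so these intervals included 1. Rbp4, at 83.1 and 48.3 CPM with a ratio of 0.582 (0.439 to 0.762), was the 1 gene past 1.5-fold in these cells, where 20.7% of all genes were and 15% were lower. In the larger RPE-like cluster alone Rbp4 (0.635) and Ttr (0.657) were past 1.5-fold, both lower in humdG, against 20.8% of all genes in either direction and 12.4% lower. Of the Ttr UMIs of the deep cells, 10 cells held 38.1% in humWT and 63.0% in humdG, and the median deep cell had 3716 and 1668 CPM. With the CPM of each RPE-like cell weighed the same, the log2 ratio of Rgr was 0.049 in place of 0.36 and that of Ttr -0.68 in place of -0.48.

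The direction of Rlbp1, Rdh10, Rbp4 and Ttr, whose intervals were below 1, depended on how RPE cells were chosen, and so did the sign for Rdh5, whose interval included 1. When cells were taken one by one by pigment markers instead of by cluster, 1386 cells in humWT and 648 in humdG passed, of which only 271 and 248 were in RPE-like clusters, and Col1a1 was at 6091 and 1830 CPM in them. In those cells the log2 ratio was 0.74 for Rlbp1, 0.64 for Rdh10, 0.44 for Rbp4 and 0.48 for Ttr. Among the 271 and 248 cells that met both rules it was 0.014 for Rlbp1, 0.0080 for Rdh10 and 0.040 for Rbp4, but -0.38 for Ttr and 0.69 for Rgr. The log2 ratio of Rgr, Rdh5 and Stra6 stayed above 0 by either of these choices, but that of Rdh5 was -0.034 in the larger RPE-like cluster and -0.075 with the libraries merged. In the RPE-like cells all 10 mesenchyme markers were lower in humdG, with a ratio of the sums of 0.431, and their part in the ratios of the 7 genes was not tested.

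Rbp4 was the gene with a second home. Mesenchyme-like cells held 69.7% of its UMIs in humWT and 47.8% in humdG, at 40.1 CPM (38.1 to 42.2) and 38.8 CPM (36.2 to 41.6), and 21.9% and 21.4% of these cells had a UMI. Within the mesenchyme it was at 52.6 and 49.1 CPM in the cluster led by Tnxb and Pi16, at 28.4 and 33.6 CPM in that led by Spp1 and Mgp and at 23.2 and 16.6 CPM in that led by Col12a1 and Postn. In humWT the interval of the cluster led by Tnxb and Pi16 (49.3 to 56.0 CPM) lay within that of the RPE-like cells (46.4 to 60.2 CPM). In humdG the cluster was higher, at 44.6 to 54.0 CPM against 29.5 to 44.6 CPM.

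Photoreceptor precursor-like cells, of which there were 623 in humWT and 836 in humdG, had Rbp4 at 31.0 CPM (26.4 to 36.2) and 70.3 CPM (63.5 to 77.7). The UMIs numbered 159 and 387, in 12.2% and 19.1% of the cells, or 2.41% and 5.88% after thinning. The humdG to humWT ratio was 2.27 (1.88 to 2.75), with 6.02% of all genes at least 1.5-fold higher in this class. In the neurogenic-like cells next to them in the lineage, the level was 1.53 and 1.75 CPM. The Rbp4-positive photoreceptor precursor-like cells had the photoreceptor gene Gngt2 at 2181 and 3070 CPM, against 1658 and 1869 CPM in those without. Rxrg, Nrl, Neurod1 and Crx were also higher in them, Crx by little at 228 and 282 against 216 and 268 CPM. Of Rxrg, Nrl, Neurod1 and Crx, only Nrl in humdG, at 85.6 against 57.2 CPM, had intervals that did not overlap. The Gngt2 intervals were apart in both libraries. Thrb went the other way, at 252 and 346 against 306 and 405 CPM, and its intervals were also apart in both libraries. Ttr in the Rbp4-positive cells was at 8.22 and 8.44 CPM, against 27.6 and 8.85 CPM. Their Col3a1, a mesenchyme gene, was at 182 and 104 CPM against 495 and 141 CPM. They were deeper cells, with medians of 8637 and 8224 UMIs against 4217 and 4095. Without the 10 cells with the most Rbp4 of each library the log2 ratio was 1.47 instead of 1.18, and merging the libraries with no integration step gave 0.48.

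In cartilage-like cells Rbp4 was at 6.08 CPM in humWT and 34.7 CPM in humdG, but the 57 UMIs of humdG were all in 10 of 115 cells, and 47.9% of all genes were at least 1.5-fold higher there. The 10 other classes apart from red blood cell-like cells were between 0 and 25.9 CPM, the pericyte-like cells being the highest with 8 and 9 UMIs.

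**Figure D5:**
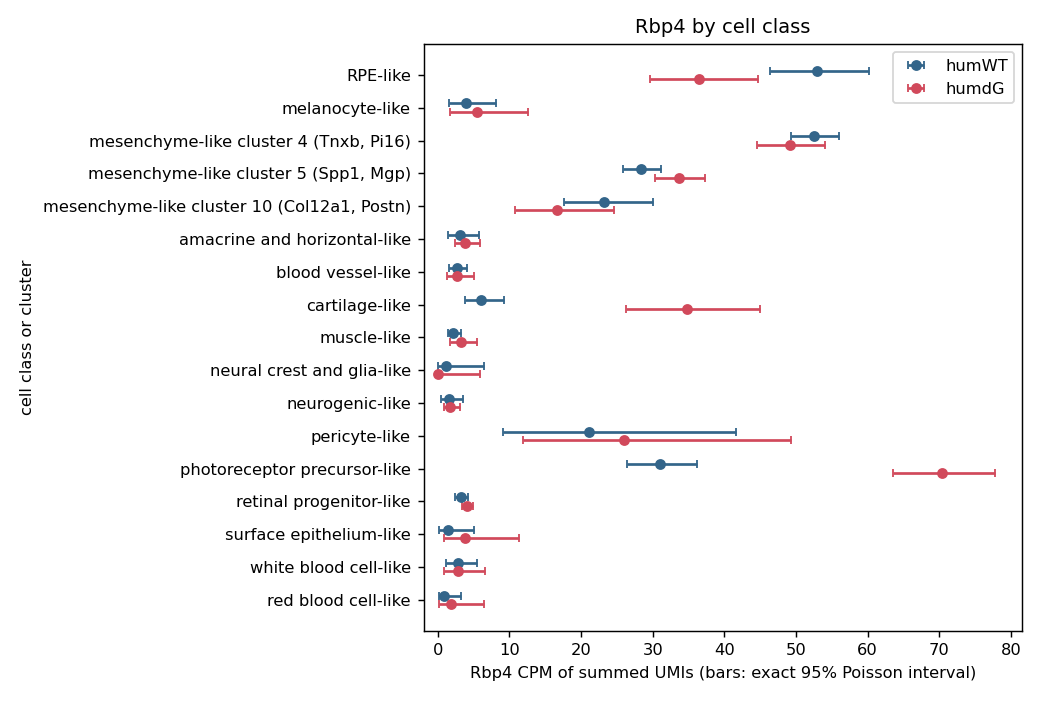
CPM of Rbp4 in each cell class of both libraries, with the 3 mesenchyme-like clusters in rows of their own and bars for exact 95% counting intervals. RPE-like cells, 2 of the mesenchyme-like clusters and photoreceptor precursor-like cells stand above most other rows in both libraries, and the humdG point is above the humWT point in the photoreceptor precursor-like cells (70.3 and 31.0 CPM).

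Outside the RPE, Rlbp1 was counted at a lower level in several classes. By the rule above it was over background there only in humWT. Those classes were retinal progenitor-like, neural crest and glia-like, muscle-like and cartilage-like cells, so they were not only neural. With hemoglobin left out of the totals, Rlbp1 was over background in no class but the RPE-like. It was at 30.5 CPM in retinal progenitor-like cells of humWT and 15.1 CPM in those of humdG, which was 3.44 (2.36 to 5.19) and 3.28 (2.25 to 4.96) times the level in neurogenic-like cells. RLBP1 is also a protein of Müller glia, which arise from these progenitors later. The progenitor-like level was not particular to them. The unnamed cluster led by Sncg and Cdk8 had 297 and 299 Rlbp1 UMIs, a higher CPM than in progenitor-like cells in both libraries. Neural crest and glia-like cells had 37.3 and 29.99 CPM, with a UMI in 12 of 48 and 10 of 39 cells. Rdh10 was at 49.6 and 33.6 CPM in progenitor-like cells, 1.88 and 2.78 times the neurogenic-like level. Ttr in the same pair of classes had ratios of 1.13 and 0.644, so its low counts there did not follow those of Rlbp1. In humWT the neurogenic-like levels of Rlbp1 and Rdh10, 8.88 and 26.3 CPM, were under the red blood cell-like levels given above. Pericyte-like cells of humWT had more Rdh10, at 63.4 CPM. So did the unnamed clusters of humWT led by Sncg and Cdk8 (541 UMIs) and by Rasgef1b and Anks1b (213 UMIs). With hemoglobin left out, Rdh10 too was above background only in RPE-like cells among the named classes. Stra6 was at 13.7 and 17.1 CPM in photoreceptor precursor-like cells, 2.97 and 4.66 times the neurogenic-like level. It was above background there only in humdG, and in neither library when hemoglobin was left out of the totals. In humWT cartilage-like cells had more Stra6, at 20.4 CPM.

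Ttr, at the opposite end, was found at low levels almost everywhere. A UMI was present in 8.89% to 35.6% of the cells in the 13 other classes of humWT and in 2.22% to 21.7% of those of humdG, with the melanocyte-like cells the highest in both, and the median class was at 13.7% and 5.36%. The red blood cell-like share of 13.2% and 3.95% lies within these ranges. Outside the RPE the level was lower in humdG in all 10 classes that had at least 20 Ttr UMIs and were compared, red blood cell-like cells included, with ratios of 0.108 to 0.574. For Rdh10 it was lower in 11 of 11 classes, with ratios of 0.288 to 0.790. It was also lower in most classes for Rlbp1 (8 of 9), Rdh5 (9 of 10), Stra6 (7 of 9) and Rgr (3 of 4). The share of all genes lower in these classes was not counted, and the part of free RNA was not tested. Rbp4 was higher in 6 of 6, with ratios of 1.02 to 5.72, but only 2 of the 6 intervals were above 1. Mesenchyme-like cells, with the most Rbp4 UMIs of any class, are not among the 6, and their Rbp4 was slightly lower in humdG. Melanocyte-like cells had 58.7 and 66.0 CPM of Ttr from 104 and 61 UMIs. Of the 13 other classes they alone were above background for Ttr, in both libraries. With hemoglobin left out of the totals they were above it in humdG only. They were not compared between genotypes and are not among those 10 classes, and their value was the higher one in humdG.

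A cluster without a name, led by the tendon genes Tnmd and C1qtnf3, had 913 Ttr UMIs in humWT (146 CPM) and 4 in humdG (4.49 CPM). The humWT UMIs were in 80 of 240 cells, and 10 cells held 52.6% of them. Those 80 cells also had Ptgds at 519 CPM, against 25.3 CPM in the cells without Ttr, Dct at 241 against 40.1 CPM and Otx2os1 at 153 against 16.2 CPM, and Tnmd at 1236 against 2077 CPM. RPE transcripts thus went with Ttr in those barcodes, and whether they held more than 1 cell was not tested.

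The genes whose levels followed the members most closely over the 24 clusters were found by Pearson's r of log2 CPM, as a description over clusters that share libraries and free RNA. For Rdh10 they were Myrf (0.975) and Slc16a8 (0.974), and for Rlbp1 they were Rdh10 (0.960) and the lipid transporter gene Mfsd2a (0.948). Rgr was close to Htr3a (0.979), Rdh5 to Rgr (0.963) and Ins2 (0.961), Stra6 to Slc16a8 (0.959) and Ggt1 (0.958), and Ttr to Rgr and Htr3a (both 0.938). Among themselves the members other than Rbp4 had values of 0.857 to 0.963. Rbp4 had 0.180 to 0.426 with the others, and its nearest genes were Socs3 (0.759) and Susd2 (0.746).

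Of the 24 other vitamin A genes, 14 in humWT and 13 in humdG had at least 20 UMIs in the RPE-like cells, and 13 and 12 of these were above background, beside the 77.0% and 70.9% of all genes. When hemoglobin was left out of the totals they numbered 10 and 9, beside 39.2% and 22.6%. Degs1, which encodes a desaturase also described as a retinol isomerase, was at 248 and 193 CPM (0.781), Abca4 at 171 and 124 CPM (0.725) and Lrp2 at 98.0 and 62.7 CPM (0.640). The larger RPE-like cluster alone had Abca4 at 155 and 124 CPM and Lrp2 at 82.4 and 57.7 CPM. The smaller cluster, higher in both genes in humWT, held 74 cells in humWT and 16 in humdG. Its part in these ratios was not tested. Rrh, which encodes the opsin peropsin, was at 89.8 and 89.2 CPM and Dhrs3, a retinaldehyde reductase gene, at 41.2 and 27.7 CPM. Bco1, the enzyme that cleaves carotene, was at 13.6 and 21.1 CPM with a ratio of 1.56 (1.06 to 2.28), and Rdh13 at 10.4 and 4.23 CPM with 0.406. Rdh8 and Sdr16c5 had 0 UMIs in the RPE-like cells of both libraries.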

How the data were processed

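The authors deposited raw UMI counts per gene and barcode, made with Cell Ranger from 10x 3′ libraries, in barcodes already called as cells. The submitters' processing notes name Cell Ranger 7.1.0, mm10 and Seurat 4.1.1, and whether intronic reads were counted is not given in the sources used here. The libraries held 17421 and 19565 barcodes with 129135207 and 114319529 UMIs, and 102 barcodes were present in both. Few-gene barcodes (136 and 178) and barcodes at or above the mitochondrial limit (268 and 258) were removed. Scrublet (scanpy 1.11.5) called 1 and 0 doublets by its own threshold, which had not worked, so the top 5% by score were taken out of each library. Cells were clustered with Seurat 5.3.0 in R 4.3.3 (2000 variable genes, integration by canonical correlation, resolution 0.5). A cluster was named from at least 3 markers raised 2-fold and found in at least 10% of its cells. A marker of that class also had to be among its 20 leading genes. The cluster led by Tnmd and C1qtnf3 thus stayed without a name with 8 mesenchyme markers raised. The same held for that led by Rasgef1b and Anks1b, with 7 retinal ganglion cell markers raised. The melanocyte-like cluster had more RPE than melanocyte markers among its leading genes and was not compared between genotypes. The mesenchyme-like cluster led by Spp1 and Mgp had more pericyte than mesenchyme markers there, so the mesenchyme-like class was not compared as a whole. Neural crest and glia-like cells, with fewer than 50 cells in each library, were not compared either.

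UMIs were summed per class and scaled to CPM. Intervals are exact Poisson for levels, conditional binomial for ratios and Clopper-Pearson for shares. A ratio was called at 1.5-fold, for genes with at least 20 UMIs. The ratio script was tested on simulated data. Named genes were the 9 members, the 24 listed genes, marker genes and, for each member with at least 100 UMIs, the 2 genes with the highest r of log2(CPM + 10), among genes with at least 200 UMIs. The members and lists were chosen with earlier results of these data known. A few genes of these lists are not reported here.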

Additional observations from a re-analysis of the deposited data

How the results depend on the processing

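Each genotype was 1 library, so no library could be left out. No paired analysis was possible with 1 library per genotype, and no test was made. The median log2 ratio of the members in RPE-like cells, -0.17, was -0.30 with the libraries merged without integration and, in choices made after seeing the data, -0.039 in cells with at least 10000 UMIs and 0.040 in cells that met both the cluster and the marker rule. It was 0.74 by the per-cell marker rule alone, where Rlbp1 was at 0.74, Rdh10 at 0.64, Rbp4 at 0.44 and Ttr at 0.48. Under both rules together Rlbp1 was at 0.014, Rdh10 at 0.0080 and Rbp4 at 0.040. The cause was not tested. Over all 14 alternatives Rgr, at 0.049 to 1.40, and Stra6, at 0.021 to 1.13, kept their direction, and Rdh5 was at -0.075 to 1.15. The Stra6 interval included 0 with merged libraries, in the larger cluster, with free RNA subtracted and in cells with at least 10000 UMIs. It also did with the limit of 200 genes per barcode and at clustering resolution 1.0. The number of members past 1.5-fold, 0 as reported, was 5 by the per-cell rule, 2 in the larger cluster and in merged libraries, and 1 under 5 other alternatives. The share of all genes past 1.5-fold was 20.8% in the larger cluster and 20.7% in cells with at least 10000 UMIs. For the other cell choices, such as the per-cell rule, that share was not counted, so their member counts have nothing to be set against. With 1 UMI as the minimum, 44.7% of all genes were past 1.5-fold. Median-of-ratios scaling moved every log2 ratio by 0.061. In the 7 alternatives run for it (the cell filters, doublet removal, clustering and the hemoglobin-free totals) 7 members were above background. Counts of at most 4 UMIs limit what can be said of Rpe65 and Lrat.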

Other observations

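Other vitamin A genes marked other classes of the eye cup. Rbp3, which encodes the retinoid carrier between photoreceptors and RPE, was at 219 CPM (206 to 232) in photoreceptor precursor-like cells of humWT and 235 CPM (222 to 248) in those of humdG, against 5.88 and 13.1 CPM in RPE-like cells. Rbp2, a retinol-binding protein gene known from the gut, was at 110.3 CPM in surface epithelium-like cells of humWT and 90.0 CPM in those of humdG, but these UMIs were in 14 of 105 and 7 of 112 cells. Rbp7 was at 25.9 and 35.0 CPM in blood vessel-like cells, where Scarb1, a scavenger receptor gene that takes up carotenoids, was at 99.9 and 102 CPM. Dhrs3 was highest in surface epithelium-like cells, at 112 and 122 CPM.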
